A study of Mus musculus with 12 samples.

Results

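The genes described here are 8 receptors of natural killer (NK) cells, the killer lectin-like receptors Klrk1, Klrd1, Klrc1, Klrc2, Klre1, Klrb1c and Klrg1 and the natural cytotoxicity receptor Ncr1. They were chosen by name and not by their levels, and all 8 were found in a table of 55487 gene identifiers. They were measured in subcutaneous tumours of Sq-1979 cells, a mouse head and neck squamous cell carcinoma line, implanted in Matrigel into male C3H/HeN mice aged 6 weeks. Treatment began 20 days after implantation and gave 4 groups of 3 samples: anti-PD1 (an antibody against the checkpoint receptor PD1), regorafenib (an oral inhibitor of several kinases) at 5 mg/kg/day, both drugs together (the combination), and vehicle. The labels state daily gavage for all groups, and give no dose for anti-PD1 and no separate doses for the combination. The model is a transplant of a single cell line under the skin, and every group received the same cells. Polyadenylated RNA was sequenced from each sample.

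NK cells are lymphocytes that kill without prior sensitisation, and they weigh signals from activating and inhibitory surface receptors. NKG2D, encoded by Klrk1, activates on stress-induced ligands of the Raet1, H60 and Ulbp1 families. CD94, encoded by Klrd1, pairs with the inhibitory NKG2A (Klrc1) or the activating NKG2C (Klrc2) to read the nonclassical MHC molecule Qa-1, encoded by H2-T23. KLRG1 inhibits on binding cadherins. Several of these receptors, NKG2D, CD94, NKG2A and KLRG1 among them, are also carried by activated CD8 T cells, whereas NKp46, encoded by Ncr1, is largely a marker of NK cells and other innate lymphoid cells.

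In GENCODE M21 annotation of build GRCm38, Klre1 (+ strand), Klrd1 (+), Klrk1 (-), Klrc2 (-) and Klrc1 (-) lie together on chromosome 6 with Klrc3, 6 genes in 101 kb from 129577905 to 129678973. Klrb1c (-) lies at 128778485 to 128789215 and Klrg1 (-) at 122270596 to 122282882 on the same chromosome. Ncr1 lies apart, on the + strand of chromosome 7 at 4337724 to 4345164. Each value counts reads over a whole gene. The exons of Klrc1 share 38.6% of their 50-base stretches with other genes, namely Klrc2 and Klrc3, and those of Klrc2 share 16.3%. Klrb1c shares 17.0%, with Klrb1a and Klrb1b among others, and 413 exonic bases with Gm44511, which had 0 counts in every library. The split of reads within these families is therefore uncertain for Klrc1, Klrc2 and Klrb1c. The other 5 members shared at most 0.280%.

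Promoter sequences are shown for 3 members, the activating receptors Ncr1 and Klrk1 and the inhibitory receptor Klrc1. Their levels varied together across the samples, at r = 0.770 for Klrc1 with Ncr1. Other pairs did so too, as at 0.886 for Klrd1 with Klre1, so this does not set these 3 apart. Each sequence is the 250 bases before a RefSeq transcription start in GRCm38.p6, written 5′ to 3′ on the gene's strand. Capitals mark the core letters of the RUNX motif, TGTGGT, or ACCACA where the match lies on the other strand. Ncr1 lies at chr7:4337465-4337714 (+), Klrk1 at chr6:129623865-129624114 (-) and Klrc1 at chr6:129678974-129679223 (-).
Ncr1: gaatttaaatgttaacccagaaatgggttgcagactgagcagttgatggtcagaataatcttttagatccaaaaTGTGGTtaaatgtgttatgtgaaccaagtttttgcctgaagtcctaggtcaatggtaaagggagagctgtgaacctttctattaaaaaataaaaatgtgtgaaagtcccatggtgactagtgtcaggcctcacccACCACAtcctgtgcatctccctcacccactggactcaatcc
Klrk1: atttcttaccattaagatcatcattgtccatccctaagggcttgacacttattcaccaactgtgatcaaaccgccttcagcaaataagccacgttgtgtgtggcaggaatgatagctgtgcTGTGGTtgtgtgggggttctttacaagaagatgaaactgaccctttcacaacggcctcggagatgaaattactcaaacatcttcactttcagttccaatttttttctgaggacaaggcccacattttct
Klrc1: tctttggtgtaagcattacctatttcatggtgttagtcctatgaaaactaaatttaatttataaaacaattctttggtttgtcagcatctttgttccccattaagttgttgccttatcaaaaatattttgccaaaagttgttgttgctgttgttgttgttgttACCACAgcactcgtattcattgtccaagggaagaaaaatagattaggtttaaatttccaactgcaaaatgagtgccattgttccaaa
RUNX proteins are transcription factors of lymphocytes, and Runx3 is known for its role in NK cells and CD8 T cells. RefSeq windows of 250 bases before and 50 after a start were at hand for 6 of the 8 members, without Klrd1 and Klrg1. The RUNX letters stood in at least 1 window of 6 of these 6 genes, on either strand. Over all genes with a window, 18.9% of 27025 held them. The matches lay 129 bases before the start in Klrk1, 89 in Klrb1c, 87 in Klrc1 and 229 in Klre1, which had none in its second window. Ncr1 held a pair, at 176 and 41 bases before the upstream start, and so did Klrc2. The letters of a T-box motif, AGGTGT or ACACCT, stood in 0 of the 6, against 15.7% of all genes. The 2 motifs were chosen after these sequences had been read, so the counts describe the letters and test nothing.

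**Figure D1:**
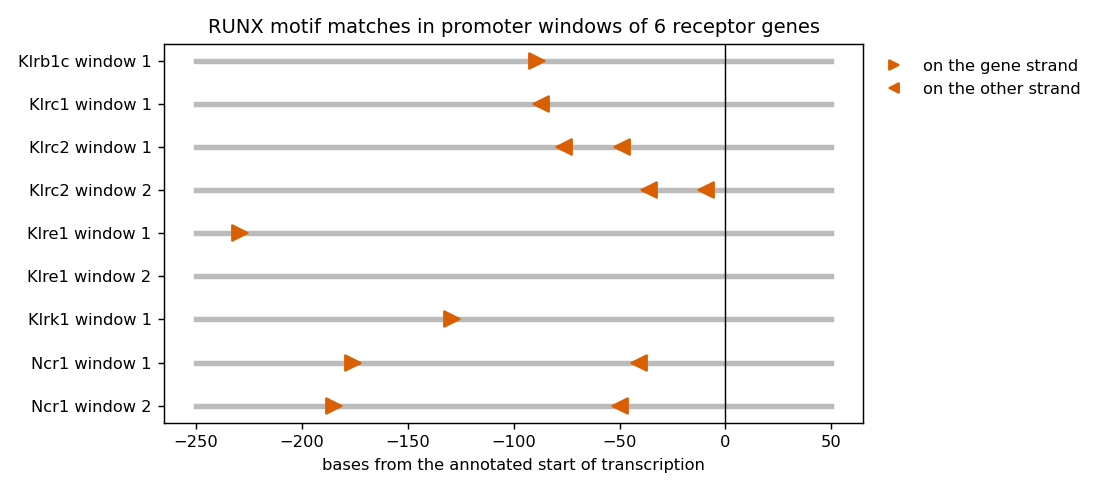
Positions of the RUNX motif letters in the promoter windows of 6 NK receptor genes, in bases from the annotated start, with arrowheads for the strand of each match. Grey bars span 250 bases before to 50 after each start, and 8 of the 9 windows drawn hold at least 1 match.

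Library totals ran from 22591835 counts in regorafenib 2 up to 28209036 in anti-PD1 3, of which the receptors took few. All 8 members passed the filter on low counts and were tested among 16974 genes. Nothing in the labels tells if a group's samples are from separate mice, so p-values measure the spread between these samples. Anti-PD1 3, regorafenib 1 and 2 and combination 3 stood high for immune genes, and regorafenib 3 and combination 1 stood low. Ptprc, which marks all white blood cells, ranged from 61.5 to 172 CPM (counts scaled to library size with TMM factors) with anti-PD1, 49.8 to 177 with regorafenib and 50.8 to 146 in the combination, against 60.9 to 70.8 with vehicle. In bulk tumour RNA, fewer cells of a type and less RNA per cell cannot be told apart.

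The levels of the receptors per length give an order in vehicle tumours that depends on the exon lengths used. Lengths covered all annotated exons of a gene, which may exceed the transcript expressed. By CPM without length, Klrk1 (7183 exonic bases) was highest, at a vehicle mean of 9.21 against 3.41 for Klrd1 (1281 bases). Per length Klrd1 was highest, at 2.67 ± 0.196 CPM per kilobase of exon (SD, n = 3), and no vehicle sample of another member reached its lowest value of 2.45. Ncr1 at 1.31 ± 0.120, Klrk1 at 1.28 ± 0.200 and Klrc1 at 0.932 ± 0.365 CPM per kilobase followed with overlapping ranges. Klrb1c at 0.150, Klrg1 at 0.113, Klre1 at 0.104 and Klrc2 at 0.0946 CPM per kilobase formed a low set, with neighbouring ranges that overlapped and all below Klrc1. Over the 12 libraries the highest level of Klrd1 was 2.97 times its lowest, which was the least variation. Klrk1 varied 3.77-fold, Klrc1 3.83-fold, Klrc2 5.19-fold, Klre1 9.55-fold, Klrg1 11.5-fold, Ncr1 12.4-fold and Klrb1c 17.2-fold. The low set rests on few reads, down to 2 counts of Klrb1c in regorafenib 3 and 2 of Klrg1 in combination 1.

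Klrk1, the activating receptor NKG2D, had 12.9, 9.41 and 23.1 CPM in the 3 anti-PD1 tumours, 18.3, 24.0 and 7.09 in the regorafenib tumours and 6.36, 12.01 and 19.8 in the combination tumours, against 10.7, 9.11 and 7.83 with vehicle. Each treated group held a sample above every vehicle value, and the regorafenib and combination groups also held one below every vehicle value. Ncr1, the NK receptor NKp46, had 2.38, 1.497 and 6.50 CPM with anti-PD1, 4.86, 7.65 and 0.628 with regorafenib and 0.619, 2.68 and 3.41 in the combination, against 2.22, 1.88 and 1.93 with vehicle. The 3 vehicle tumours lay close together for Ncr1, and every treated group had samples on both sides of them.

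Klrd1, which encodes the shared CD94 chain, had 5.86, 3.34 and 8.33 CPM with anti-PD1, 8.88, 9.32 and 4.21 with regorafenib and 4.11, 5.71 and 7.79 in the combination, against 3.48, 3.14 and 3.63 with vehicle. Both regorafenib-treated groups lay wholly above vehicle, and anti-PD1 overlapped it through a single sample. Its inhibitory partner Klrc1 had 3.44, 2.27 and 4.74 CPM with anti-PD1, 3.38, 5.32 and 2.03 with regorafenib and 1.68, 2.02 and 3.37 in the combination, against 2.68, 1.48 and 1.39 with vehicle. All 3 treated groups overlapped vehicle for Klrc1. The activating partner Klrc2 averaged 1.10 ± 0.556 CPM with anti-PD1, 1.09 ± 0.559 with regorafenib and 0.715 ± 0.348 in the combination, against 0.550 ± 0.220 with vehicle (SD, n = 3 each), and overlapped vehicle in each group too.

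Klre1, a lectin-like receptor of mouse NK cells, had 12, 6 and 37 counts with anti-PD1, 52, 31 and 27 with regorafenib and 7, 21 and 40 in the combination, against 6, 9 and 13 with vehicle. Regorafenib alone lay wholly above vehicle. Klrg1, the inhibitory receptor of mature NK and effector T cells, had 9, 6 and 19 counts with anti-PD1, 14, 16 and 8 with regorafenib and 2, 18 and 28 in the combination, against 6, 3 and 3 with vehicle. Regorafenib again lay above vehicle, whereas the combination held both the lowest and the highest count of the series. Klrb1c, which encodes NKR-P1C, the NK1.1 antigen of strains that carry it, had 17, 23 and 30 counts with anti-PD1, 30, 26 and 2 with regorafenib and 4, 12 and 11 in the combination, against 13, 13 and 8 with vehicle. Here anti-PD1 was the group without overlap, and regorafenib 3 stood far below its companions.

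**Figure D2:**
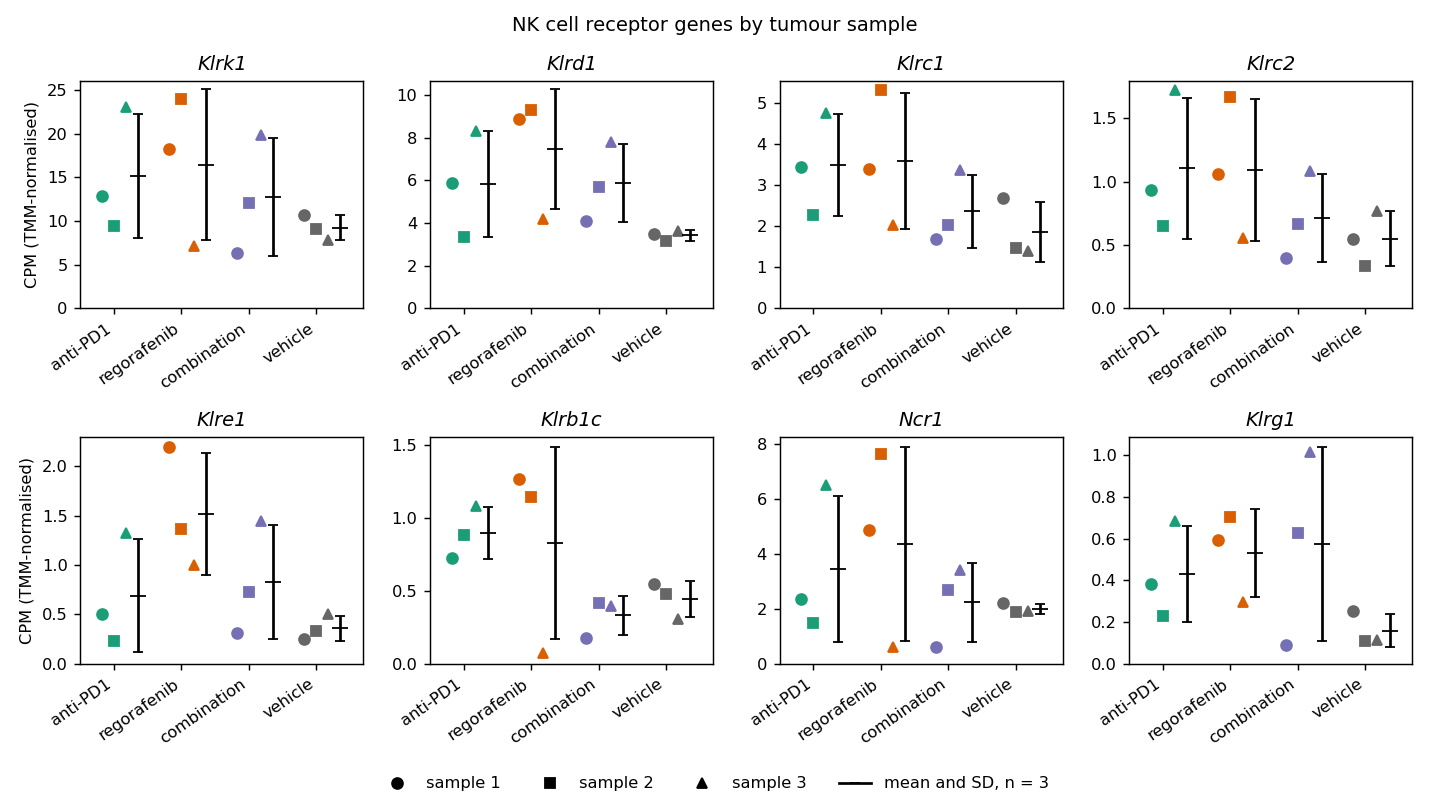
Level in TMM-normalised CPM of each of the 8 NK receptor genes in the 12 tumour samples, with the mean and SD of each group (n = 3) beside the points. For Klrk1, Klrd1 and Ncr1 the vehicle samples lie close together and each treated group spreads, with anti-PD1 3, regorafenib 2 and combination 3 high and regorafenib 3 and combination 1 low for Klrk1 and Ncr1.

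Regorafenib against vehicle asks what the kinase inhibitor alone did. All 8 receptors had higher fitted levels, with a median log2 fold change of 1.05 beside 0.01 over all 16974 genes. The shift was not particular to them. Of T cell markers 14 of 16 were positive (median 0.86), of cytotoxic effectors 15 of 16 (0.996) and of other immune cell markers 11 of 11 (0.84). Of the receptors 0 of 8 passed an adjusted p under 0.05 by edgeR's quasi-likelihood test with Benjamini-Hochberg adjustment, where 0.00589% of all genes passed. DESeq2 also called 0 of the 8, and 2.66% of all genes. At an unadjusted p under 0.05 edgeR gave 3 of 8, beside 14.1% of all genes. The same 3, Klrd1, Klre1 and Klrg1, were those whose groups did not overlap, and 20.8% of all genes had groups without overlap (10.6% higher with regorafenib). Klre1 had the largest log2 fold change at 2.05 ± 0.68 (SE; adjusted p = 0.231), Klrg1 had 1.71 ± 0.77 (adjusted p = 0.351) and Klrd1 1.13 ± 0.38 (adjusted p = 0.238) by edgeR. Ncr1 had a log2 fold change of 1.12 with a 95% interval from -0.70 to 2.94, which spans both directions, and was at 0.44 without regorafenib 2 and 1.64 without regorafenib 3. Klrk1 had 0.84, and 0.46 without regorafenib 2.

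Anti-PD1 against vehicle asks what checkpoint blockade alone did. The 8 receptors again all had higher fitted levels, with a median log2 fold change of 0.92 beside 0.01 over all genes. Of T cell markers 15 of 16 were positive (median 0.67), of cytotoxic effectors 15 of 16 (0.64) and of other immune cell markers 10 of 11 (0.35). By edgeR 0 of 8 passed after adjustment, as did 0% of all genes, 0 of 8 had an unadjusted p under 0.05 (5.17% of all genes), and DESeq2 called 0 of 8 (0.0295% of all genes). Klrb1c was the 1 member without overlap between the groups, at 0.894 ± 0.178 CPM with anti-PD1 against 0.444 ± 0.122 with vehicle (SD, n = 3 each), where 17.0% of all genes had none (7.93% higher). Its log2 fold change was 1.01, with a 95% interval from -0.50 to 2.52 and an adjusted p of 0.865 by edgeR. Klrk1 had 0.72, from -0.38 to 1.82, and Ncr1 0.79, from -1.03 to 2.60. Klrk1, Ncr1 and Klre1 rested on a single library. Without anti-PD1 3 the log2 fold changes were 0.28 for Klrk1, -0.056 for Ncr1 and 0.015 for Klre1, which had 0.93 with all libraries.

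The combination against vehicle compares both drugs with none. The fitted level was higher for 7 of the 8 receptors and lower for Klrb1c, with a median log2 fold change of 0.43 beside 0.02 over all genes. T cell markers had a median of 0.67, with 14 of 16 positive. By edgeR 0 of 8 passed after adjustment, although 7.34% of all genes did, and DESeq2 called 0 of 8 (15.4% of all genes). Klrg1 was the 1 member with an unadjusted p under 0.05, which 27.9% of all genes had, at a log2 fold change of 1.87 ± 0.76 (SE; adjusted p = 0.141, edgeR). Klrd1 was the 1 member without overlap, at 5.87 ± 1.84 CPM against 3.41 ± 0.252 with vehicle (SD, n = 3 each), where 39.2% of all genes had none (19.6% higher). Its log2 fold change was 0.78, with a 95% interval from -0.06 to 1.62. Klrb1c had -0.40 (-2.02 to 1.23) and Ncr1 0.16 (-1.67 to 1.99), so that neither direction is given by these samples.

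The average effects set all 6 samples with a drug against the 6 without it. For regorafenib 7 of 8 receptors had higher fitted levels (median log2 fold change 0.27 beside 0.0030 over all genes). By edgeR 0 of 8 passed after adjustment, while 9.49% of all genes did, and DESeq2 called 0 of 8 (16.5% of all genes). Klre1 alone had an unadjusted p under 0.05 (28.0% of all genes), at a log2 fold change of 1.16 ± 0.47 (SE; adjusted p = 0.136, edgeR), followed by Klrg1 at 1.07 ± 0.51 and Klrd1 at 0.57 ± 0.27. No receptor separated the 6 from the 6, which 4.64% of all genes did. For anti-PD1 6 of 8 had higher fitted levels (median 0.17 beside 0.01), and 0 of 8 passed by edgeR, as did 0% of all genes. At an unadjusted p under 0.05 there were 0 of 8 (8.75% of all genes), 0 were without overlap (0.212% of all genes), and DESeq2 gave these 8 genes no adjusted p, while 0.171% of those that had one passed. Klrg1 had the largest value there, 0.80 ± 0.51 (SE; adjusted p = 0.606, edgeR).

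The interaction asks whether regorafenib did the same with anti-PD1 as without it, and a negative value means a lower log2 fold change in its presence. It was negative for all 8 receptors, with a median of -1.55 on the log2 scale beside -0.0049 over all genes, of which 49.1% were positive. By edgeR 0 of 8 passed, as did 0% of all genes, and each adjusted p was 0.9998. Klrb1c at -2.28 ± 0.98 and Klrc1 at -1.51 ± 0.61 (SE) had an unadjusted p under 0.05, where 2.65% of all genes did, and DESeq2 called 0 of 8 (0% of all genes). The T cell genes behaved alike in sign, with 16 of 16 negative and a median of -0.86. The comparisons with vehicle, the average effects and the interaction share samples, so their values are not independent of each other.

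**Figure D3:**
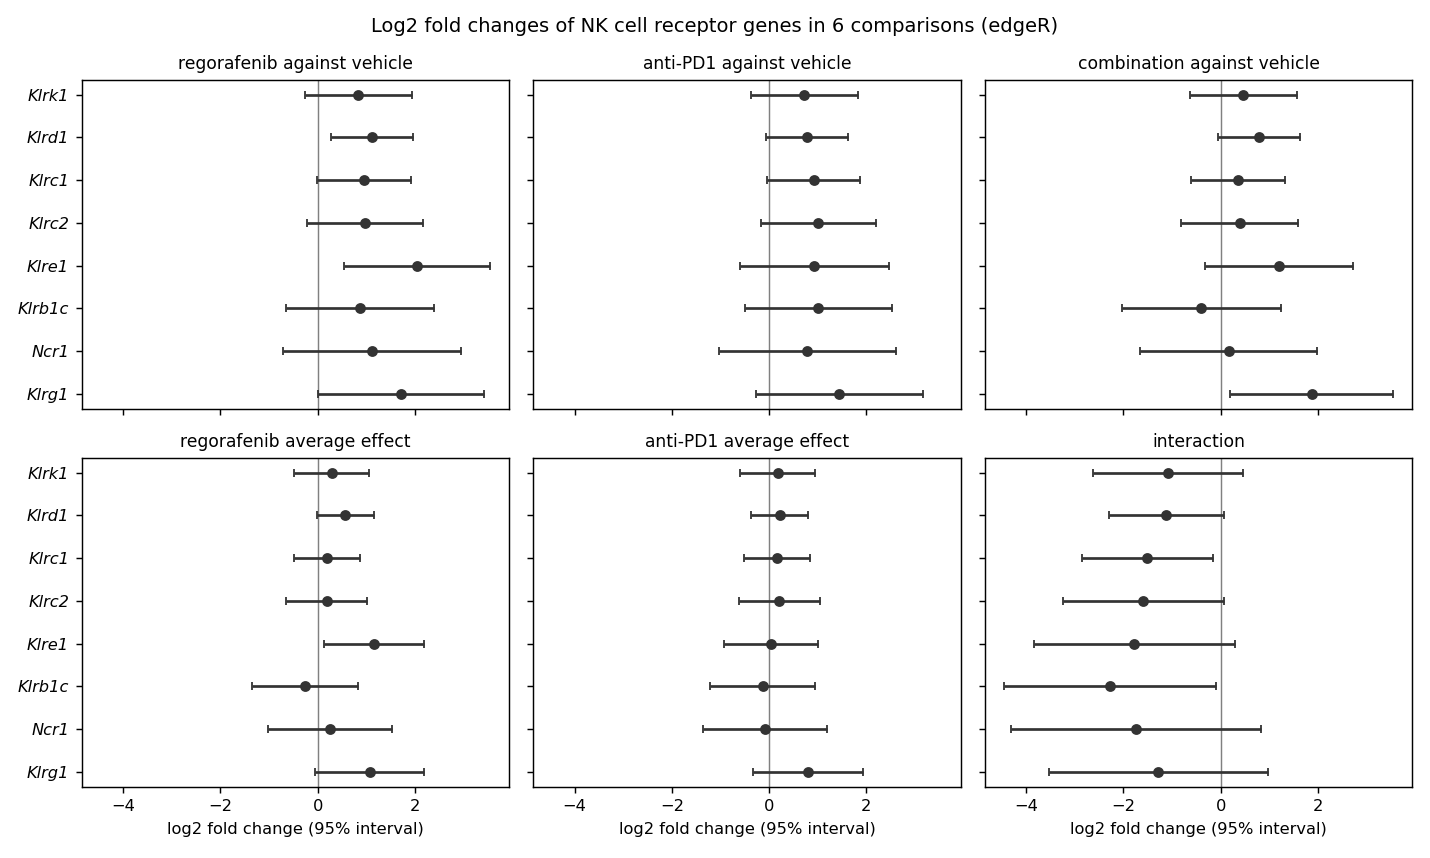
Log2 fold changes from edgeR of the 8 NK receptor genes in 6 comparisons, with 95% intervals. Intervals are wide, and those of Klrd1, Klre1 and Klrg1 with regorafenib alone, Klrg1 with the combination, Klre1 in the average regorafenib effect and Klrb1c and Klrc1 in the interaction leave out 0 before adjustment for the number of genes.

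Adding the level of 4 Y-linked genes as a covariate changed which receptors passed. These genes, Ddx3y, Eif2s3y, Kdm5d and Uty, summed to 21.3 to 42.3 CPM with anti-PD1, 18.1 to 41.7 with regorafenib and 18.3 to 34.6 in the combination, against 25.6 to 33.6 with vehicle. The highest sum of each treated group was in anti-PD1 3, regorafenib 2 and combination 3, which stood high for immune genes. Regorafenib 3 and combination 1, which stood low for immune genes, had the lowest sums of all. The covariate thus overlaps the spread in immune RNA, and the fits do not separate them. With the covariate, 3 receptors rose in the average regorafenib effect by edgeR after Benjamini-Hochberg adjustment, while 19.7% of all genes then passed. They were Klre1 at a log2 fold change of 1.37 (adjusted p = 0.0288), Klrd1 at 0.67 (adjusted p = 0.0323) and Klrg1 at 1.26 (adjusted p = 0.0437). In the combination against vehicle 2 passed, Klrg1 at 2.18 (adjusted p = 0.0341) and Klrd1 at 1.01 (adjusted p = 0.0382), beside 13.6% of all genes. In regorafenib alone against vehicle 0 of 8 passed (1.74% of all genes), and in the other comparisons 0 of 8 (0%). Without the covariate 0 passed in either comparison, and the part of these genes in the result was not tested further.

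The receptors followed T cell RNA from sample to sample. Cd3e, which encodes a chain of the T cell receptor complex that mature NK cells do not carry at the surface, had 6.83 to 16.1 CPM with anti-PD1, 6.42 to 17.0 with regorafenib and 4.86 to 17.6 in the combination, against 5.94 to 8.14 with vehicle. Across the 12 samples Klrk1 had a Pearson r of 0.981 with Cd3e on the log2 CPM scale and a Spearman rho of 0.965 (permutation test, p = 1e-05 for each, the smallest that 100000 permutations can give). Its adjusted p over the 8 relations computed was 4e-05 for r and 8e-05 for rho. Klrg1 had an r of 0.937 and a rho of 0.937 (permutation p = 1e-05 and 2e-05, adjusted 4e-05 and 8e-05), Klrd1 0.907 and 0.748 (p = 0.00013 and 0.0065, adjusted 0.00026 and 0.00867), and Ncr1 0.890 and 0.909 (p = 4e-05 and 0.0001, adjusted 0.000107 and 0.000267). Receptors of NK cells and shared receptors alike thus varied with a T cell gene from sample to sample. Cd3e was chosen after its values were seen, and the permutations exchanged samples between groups. Ptprc, the marker of all white blood cells, had an r of 0.976 with the mean standardised level of the 8 receptors. It was taken from the genes most like that mean. An r with a mean of 8 genes is not comparable with those of single receptors with Cd3e. The p-values do not show a tie particular to T cell RNA.

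The remaining receptors followed Cd3e less closely in their point estimates, and differences between these correlations were not tested. Klrc1 had an r of 0.864 and a rho of 0.797 (permutation p = 0.00056 and 0.00275, adjusted 0.000853 and 0.00456), and Klrc2 0.848 and 0.797 (p = 0.00064 and 0.00285, adjusted 0.000853 and 0.00456). Klre1 had 0.791 and 0.706 (permutation p = 0.00345 and 0.0122, adjusted 0.00394 and 0.014), and Klrb1c 0.647 and 0.615 (p = 0.0226 and 0.0364, adjusted 0.0226 and 0.0364). Without combination 3 and regorafenib 2, the samples farthest from the median of Cd3e, r lay between 0.723 for Klre1 and 0.980 for Klrk1. Within the 6 samples given regorafenib r ran from 0.801 for Klrb1c to 0.985 for Klrk1, and within the other 6 from 0.750 for Klrb1c to 0.998 for Klrk1.

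**Figure D4:**
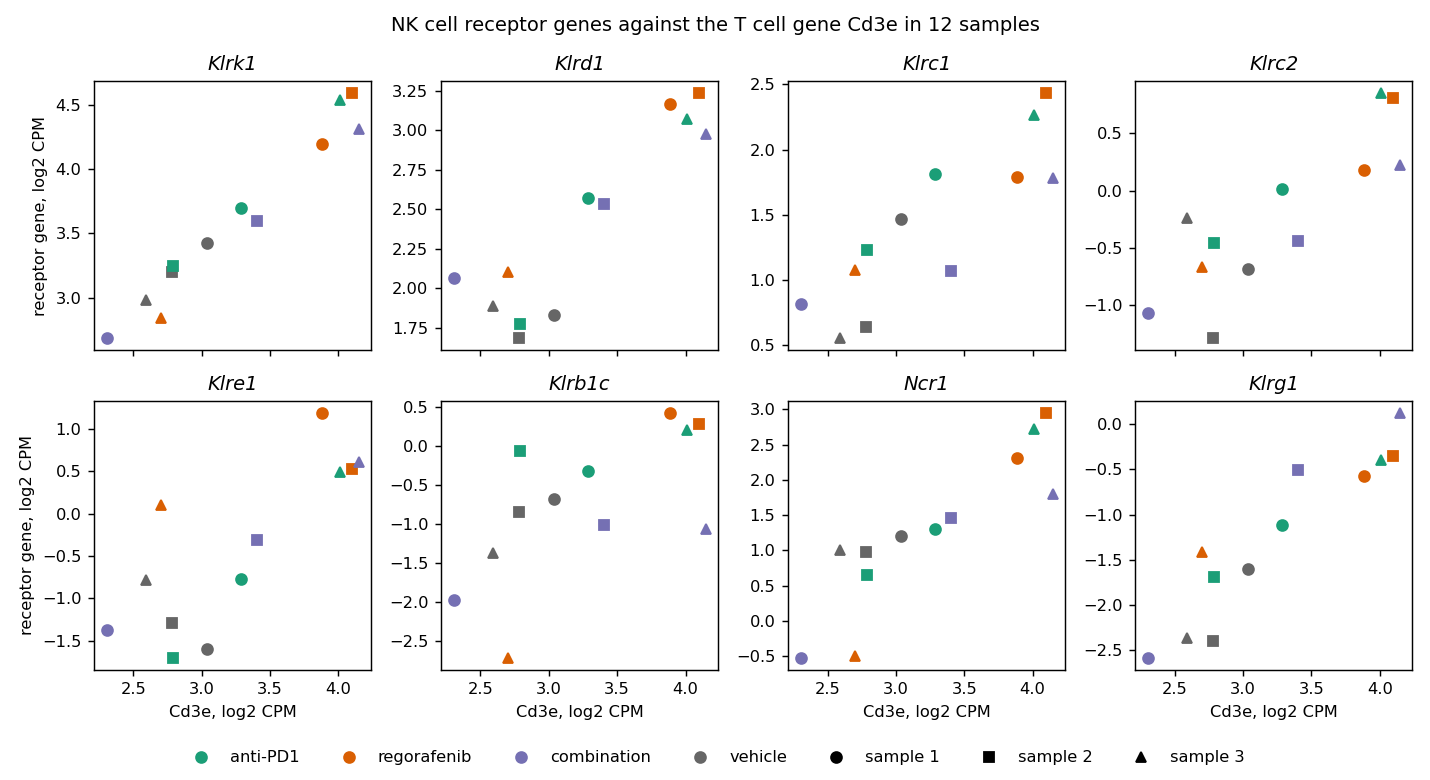
Level of each NK receptor gene against Cd3e in the 12 tumour samples, both as log2 CPM, coloured by group. Klrk1 follows Cd3e most closely (r = 0.981) and Klrb1c least (r = 0.647), with regorafenib 3 lowest for Klrb1c and, beside combination 1, among the 2 lowest for Ncr1.

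Set against T cell RNA within each sample, the summed receptors had group ranges that overlapped. For every 100 counts of Cd3d, Cd3e and Cd3g together, the 8 receptors summed to 77.1 to 85.7 counts with anti-PD1, 73.5 to 97.2 with regorafenib and 66.8 to 79.1 in the combination, against 78.8 to 82.9 with vehicle. Klrk1 had 37.2 to 41.7 counts per 100 CD3 counts with anti-PD1, 32.8 to 45.6 with regorafenib and 34.5 to 38.2 in the combination, against 39.4 to 42.6 with vehicle. The combination thus lay below vehicle for Klrk1 on this measure, without a test. Single receptors of low count had a treated group apart from vehicle, without a test. The share of all genes that lie apart on this measure was not computed. On CPM, 20.8% of all genes had no overlap for regorafenib against vehicle and 39.2% for the combination. Klrg1 had 0.960 to 1.23 per 100 with anti-PD1, 1.22 to 1.37 with regorafenib and 0.495 to 1.99 in the combination, against 0.517 to 0.995 with vehicle, so that regorafenib alone lay wholly above vehicle and the combination held values on both sides of it. Klre1 had 0.960 to 2.399 per 100 with anti-PD1, 2.59 to 4.62 with regorafenib and 1.73 to 2.53 in the combination, against 0.995 to 2.52 with vehicle, and regorafenib alone again lay above vehicle. Klrb1c had 1.95 to 3.68 per 100 with anti-PD1, 0.342 to 2.61 with regorafenib and 0.695 to 1.33 in the combination, against 1.55 to 2.24 with vehicle, and the combination lay below vehicle. These ratios were chosen after the values had been seen and are a description.

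Ncr1 was low beside Klrd1 in 2 libraries. It stood at 6.24 to 11.7 counts per 100 CD3 counts with anti-PD1, 2.91 to 14.5 with regorafenib and 3.47 to 8.53 in the combination, against 8.79 to 9.71 with vehicle. The combination lay wholly below vehicle on this measure, by a narrow gap and without a test. The share of all genes that lie apart on this measure was not computed. On CPM Ncr1 overlapped vehicle in the combination, where 39.2% of all genes had no overlap. The lowest values were those of regorafenib 3 and combination 1, where Klrd1 gave 19.5 and 23.02 per 100, the highest of all 12. Klrd1 counts per Ncr1 count were accordingly 6.71 in regorafenib 3 and 6.64 in combination 1, beside 1.22 to 2.46 in the other 7 treated libraries and 1.57 to 1.88 with vehicle. Regorafenib 3 had 17 Ncr1 counts and 27 of Klre1, and combination 1 had 14 Ncr1 counts and 7 of Klre1. Klrb1c, at 2 and 4 counts, was low in the same 2 libraries.

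**Figure D5:**
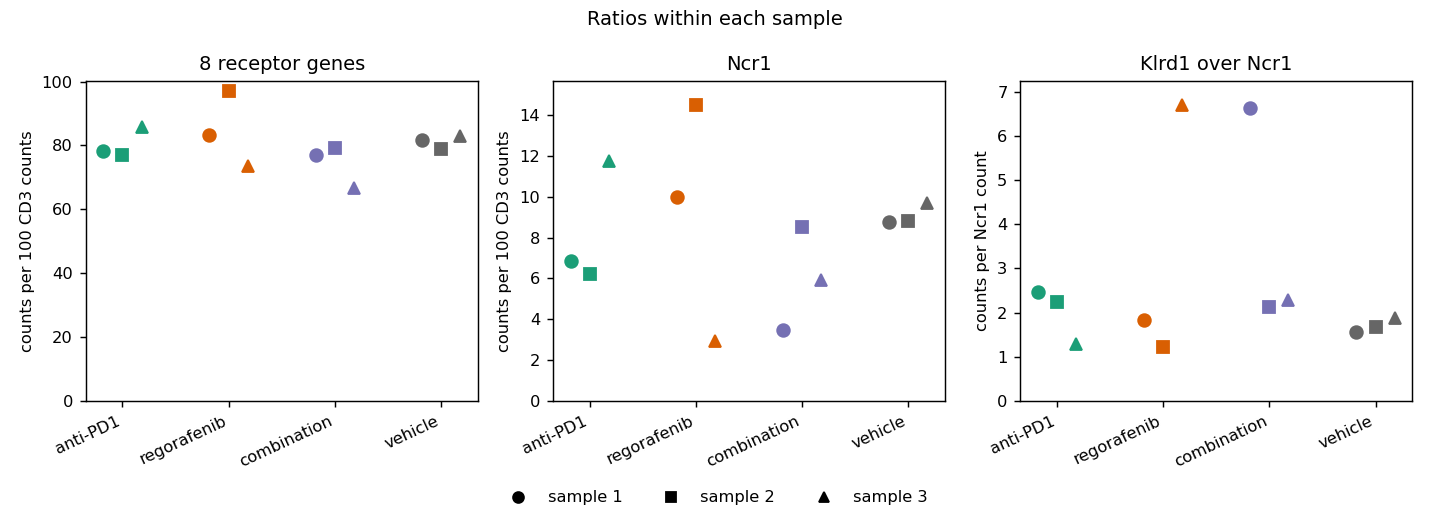
Ratios of counts within each of the 12 samples: the 8 receptors summed per 100 counts of Cd3d, Cd3e and Cd3g, Ncr1 per 100 of the same, and Klrd1 per Ncr1 count. The summed receptors lie between 66.8 and 97.2 in all groups, while Klrd1 per Ncr1 reaches 6.71 in regorafenib 3 and 6.64 in combination 1.

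Among themselves the receptors correlated from an r of 0.264 for Klrb1c with Klre1 to 0.940 for Klrk1 with Ncr1, across 12 samples that share the spread in immune RNA. The genes outside the list most like the mean standardised level of the 8 were Zap70 (r = 0.990), Cd2 (0.982), Itgal (0.976), Ptprc (0.976), Fmnl1 (0.975), Lat (0.975), Ptpn7 (0.974), Nup210 (0.973), Rab27a (0.973) and Itgb2 (0.971). Zap70 and Lat encode signalling proteins of T and NK cell receptors, Cd2 and Itgal adhesion receptors of lymphocytes, and Rab27a a GTPase of granule release.

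Further genes of NK recognition were counted in fixed lists, and 9.49% of all genes passed in the average regorafenib effect by edgeR, which is the share to read the counts of that effect against. Of 31 other receptors of NK cells, Ly49 (Klra) genes among them, 22 were tested and 1 passed. Lilrb4a, an inhibitory receptor known mainly from myeloid cells, rose with regorafenib on average, at 12.6 ± 5.15 CPM with regorafenib and 11.7 ± 0.584 in the combination, against 4.95 ± 2.59 with anti-PD1 and 5.18 ± 1.08 with vehicle (SD, n = 3 each). Its log2 fold change was 1.26 (adjusted p = 0.0215, edgeR quasi-likelihood test), with 18 of 22 genes positive and a median of 0.28. The myeloid gene Itgam, the 1 of 11 tested markers of other immune cells to pass, rose too, at 5.26 ± 2.06 CPM with regorafenib and 5.17 ± 0.488 in the combination, against 2.75 ± 0.958 with anti-PD1 and 2.82 ± 0.269 with vehicle (log2 fold change 0.90, adjusted p = 0.0328, edgeR). Of those 11 markers 7 were positive and 4 negative, with a median of 0.39. Among the 4 negative were the macrophage genes Csf1r at -0.067 (adjusted p = 0.912) and Adgre1 at -0.069 (adjusted p = 0.908, edgeR), which did not pass. Cd68, a macrophage marker of the same list, is not given here, so these genes do not describe macrophage RNA as a whole. The part of myeloid RNA in the Lilrb4a result was not tested. The Ly49 genes Klra4, Klra6 and Klra10 had 0 counts in all libraries. Reads were compared with the C57BL/6J reference, in which this family differs from other strains, and the effect of that on these counts was not tested. Of 17 adaptors and signalling genes tested, 0 passed, with 1 at an unadjusted p under 0.05, Vav2 (0.44, adjusted p = 0.0954, edgeR), where 28.0% of all genes had one.

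Of the ligands of these receptors 7 were tested and 1 passed in the average regorafenib effect, beside 9.49% of all genes. H2-T23, the Qa-1 gene read by CD94 and NKG2A, averaged 829 ± 129 CPM with anti-PD1, 798 ± 138 with regorafenib and 803 ± 62.6 in the combination, against 671 ± 65.9 with vehicle (SD, n = 3 each), and did not pass. Of the NKG2D ligands, H60c averaged 16.1 ± 7.16 CPM with anti-PD1, 16.8 ± 9.91 with regorafenib and 10.1 ± 5.10 in the combination, against 21.9 ± 5.13 with vehicle, and Ulbp1 and Raet1e had group means of 12.7 to 17.1 and 2.49 to 3.88 CPM, and none of the 3 passed. Cdh2, an N-cadherin bound by KLRG1, was the 1 that fell, at 1.46 ± 0.988 CPM with regorafenib and 1.08 ± 0.501 in the combination, against 3.63 ± 2.12 with anti-PD1 and 4.81 ± 0.459 with vehicle. Its log2 fold change was -1.73 (adjusted p = 0.0295, edgeR), beside a median of -0.03 over the 7. Cdh1, the E-cadherin ligand of the same receptor, lay between 834 and 870 CPM in the 4 group means.

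Killing and regulatory genes passed in small numbers, beside 9.49% of all genes in the average regorafenib effect. Of 16 cytotoxic effectors tested, Prf1, which encodes the pore-former perforin, and Ccl3, a chemokine, rose with regorafenib on average (log2 fold change 1.03, adjusted p = 0.0423, and 0.95, adjusted p = 0.0453, edgeR), and in the combination against vehicle (1.495, adjusted p = 0.0464, and 1.40, adjusted p = 0.0471), where 7.34% of all genes passed. Prf1 averaged 6.39 ± 2.33 CPM with anti-PD1, 9.40 ± 1.96 with regorafenib and 9.04 ± 3.52 in the combination, against 3.21 ± 1.20 with vehicle (SD, n = 3 each). Il18, a cytokine that activates NK cells, was the 1 of 11 cytokine genes to pass and fell, at 8.68 ± 3.01 CPM with regorafenib and 6.66 ± 0.598 in the combination, against 10.9 ± 2.24 with anti-PD1 and 12.7 ± 1.38 with vehicle (log2 fold change -0.63, adjusted p = 0.0401, edgeR). It was the only negative gene of that list of cytokines and their receptors, in which 10 of 11 were positive, with a median of 0.34. Ikzf2, the zinc finger factor Helios, was the 1 of 11 transcription factors to pass and rose by 0.36 (adjusted p = 0.0183, edgeR). The fold change of Eomes, a T-box factor of NK cells, was 1.02 on the log2 scale (adjusted p = 0.148, edgeR). T cell markers gave 0 of 16, with 14 of 16 positive and a median of 0.45, larger than the 0.27 of the receptors. Of 9 tumour epithelial markers 4 were positive and 5 negative, with a median of -0.034, and 1 passed. That was Krt14, a keratin, which fell by 0.52 (adjusted p = 0.0303, edgeR), while Krt18 was at 0.90 (adjusted p = 0.117, edgeR).

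The calls were lost with some single libraries left out. Leaving out some of these libraries, but not all, lowered the count of calls over all genes too. The log2 fold change in the average regorafenib effect stayed at 0.32 to 0.41 for Ikzf2, 1.13 to 1.52 for Lilrb4a and 0.87 to 1.16 for Prf1. The genes called in that effect, 1610 with all libraries, were 642, 585 and 623 without vehicle 1, 2 and 3, 482 without anti-PD1 2 and 526 without combination 2. They rose to 1987 without anti-PD1 1, 1819 without regorafenib 2 and 1672 without combination 3, and Prf1 lost its call without each of these. In the combination against vehicle 1246 genes were called with all libraries, and 1 to 3 without any 1 vehicle library. Without anti-PD1 1, regorafenib 2 and combination 3 there were 1505, 1459 and 1429, and Prf1 again lost its call without each. Prf1 and Ccl3 also lost theirs when genes of low count were kept in the test, by edgeR. For the average effect of regorafenib the adjusted p was then 0.0603 for Prf1 and 0.0513 for Ccl3, and for the combination 0.0655 and 0.0537 (edgeR). Prf1 lost its call as well in the additive model for the average effect (adjusted p = 0.0544) and with only the 6 samples compared for the combination (adjusted p = 0.0502, edgeR). Lilrb4a, Cdh2, Il18, Ikzf2, Prf1, Ccl3, Itgam and Krt14 each lost the call in the average regorafenib effect when vehicle 2, vehicle 3, combination 2 or anti-PD1 2 was left out, and most of them without further libraries. The highest adjusted p by edgeR with a library left out was 0.0627 for Lilrb4a, 0.0807 for Cdh2, 0.108 for Il18, 0.0595 for Ikzf2, 0.0994 for Prf1, 0.113 for Ccl3, 0.0822 for Itgam and 0.0812 for Krt14. In the combination against vehicle Il18 fell by 0.93 (adjusted p = 0.0407), Krt14 fell by 0.69 (adjusted p = 0.0429) and Ikzf2 rose by 0.68 (adjusted p = 0.0133) on the log2 scale by edgeR. With a library left out the highest adjusted p there was 0.148 for Prf1, 0.150 for Ccl3, 0.141 for Il18, 0.0797 for Ikzf2 and 0.144 for Krt14, each lost without any 1 vehicle library among others. In regorafenib alone and anti-PD1 alone against vehicle, the average anti-PD1 effect and the interaction, 0 genes of these lists passed.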

How the data were processed

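Per the labels' protocols, RNA was extracted from the tumours and stranded libraries of polyadenylated RNA were made. The authors deposited raw read counts per gene for 12 libraries. The submitters' processing notes name cutadapt 2.4, STAR 2.7.2a and build GRCm38. The counting tool and its strand setting are not given in the sources used here. Symbols came from GENCODE M21, which also gave exon lengths.

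The edgeR 4.0.16 quasi-likelihood F test, with robust estimation and TMM factors (R 4.3.3), was fitted to 4 group means over 12 libraries, leaving 8 residual degrees of freedom. filterByExpr used a minimum count of 10 and a minimum total of 15, p-values were two-sided and Benjamini-Hochberg adjusted over 16974 genes, and the threshold was 0.05. Log2 CPM used a prior count of 2. Relations to Cd3e used 100000 permutations. The procedure was tested on simulated data. Alternatives were DESeq2 1.42.0, RLE factors, no filter, a replicate block, a Y-linked covariate, an additive model, only the 6 samples compared, and each library left out. Fits without a library still estimated the spread from every group.

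Named were all 8 members, every gene of a list that passed (up to 4) or up to 2 of smallest p where none did, and the 10 genes most like the members. The members, lists and comparisons were chosen with earlier results of these data known, and Eomes, Ptprc, Cd3e and the ligands that did not pass were added after their values were seen. Csf1r, Adgre1, Krt18 and the Ly49 genes without counts were also named outside that rule.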

Additional observations from a re-analysis of the deposited data

How the results depend on the processing

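The 0 receptors passing after adjustment was kept in each comparison under DESeq2 (where it gave an adjusted p), RLE factors, no filter and every library left out, in both average effects under the additive model, and in the 3 comparisons with vehicle under only the 6 samples compared. The Y-linked covariate moved it to 3 in the average regorafenib effect and 2 in the combination against vehicle. Of 272 log2 fold changes of single receptors under these settings and the replicate block, fits with a library left out not among them, 263 kept direction and call, 5 newly passed and 4 reversed, all 4 in the average anti-PD1 effect: Klre1 at -0.14 with a replicate block and -0.059 in the additive model, and Klrb1c at 0.13 and Ncr1 at 0.27 with the covariate. The cause was not tested.

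The labels number samples 1 to 3 in each group. Same-numbered samples had deviations from their group means correlated from -0.657 to 0.630, over 0.1 in 2 of 18 pairs. Pairs of other numbers ran from -0.499 to 0.531, over 0.1 in 17 of 36. These values gave no sign that the numbers pair the samples, but with 3 samples a group they cannot exclude it. With the replicate block 0 receptors passed in each comparison, and 2.97% of all genes did in the average regorafenib effect, against 9.49% without it. The genes of the other lists that passed in the average regorafenib effect lost the call with the block, except Ikzf2, and those of the combination against vehicle, Ikzf2 included, all did, where 11 genes in all passed (cause not tested).

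With a library left out, 18 of 96 log2 fold changes reversed in the average anti-PD1 effect, 5 in the average regorafenib effect, 3 in the combination and 1 in anti-PD1 alone against vehicle, and their ranges follow. In anti-PD1 against vehicle, Ncr1 from -0.056 to 1.14. In the average anti-PD1 effect, Klrb1c from -0.41 to 0.10, Klrc1 from -0.015 to 0.36, Klrc2 from -0.032 to 0.43, Klre1 from -0.42 to 0.25, Klrk1 from -0.059 to 0.36, Ncr1 from -0.51 to 0.25. In the combination against vehicle, Klrc2 from -0.035 to 0.72, Klrk1 from -0.00010 to 0.79, Ncr1 from -0.27 to 0.60. In the average regorafenib effect, Klrb1c from -0.50 to 0.016, Klrc1 from -0.0056 to 0.38, Klrc2 from -0.037 to 0.42, Ncr1 from -0.091 to 0.67.

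Counts of 2 to 52 limit Klrb1c, Klre1, Klrg1 and Klrc2, and 3 samples a group limit every comparison.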
